A study of Mus musculus with 36 samples.

Results

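Skin wounds of the P arm were compared between day 4 and day 2 after injury, across all genes. All P libraries of those days were taken, 5 at day 4 and 5 at day 2, which makes 10 of the 36 libraries of the series. The remaining libraries are P wounds of day 12 (6), PD wounds of day 2 (5), day 4 (6) and day 12 (6), and unwounded skin (3). Each library is polyadenylated RNA of a mouse skin biopsy, snap frozen, prepared with a strand-specific kit and counted per gene. The arms are named P and PD, letters that the labels do not explain, and the series title concerns removal of senescent cells that express much p21, the product of Cdkn1a. Strain, genotype, age, the agents given to either arm, and what all P wounds share are not given in the sources used here. Nor do the labels say whether each library is a separate animal, so p-values measure only the spread between these libraries.

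In a fresh skin wound, neutrophils and monocytes enter within hours while keratinocytes at the edge leave their layered program and migrate under the scab. Macrophages, new vessels, collagen-producing fibroblasts and contractile myofibroblasts follow, and the epidermis behind the migrating edge again builds the cornified layers that make the skin a barrier. Mouse skin also carries a sheet of striated muscle, the panniculus carnosus. Injured fibres of that sheet are rebuilt by Pax7-positive satellite cells, which divide as myoblasts under Myod1, commit under Myog, fuse with the help of Mymk and Mymx, and make embryonic and perinatal sarcomere proteins before the adult ones.

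In the P arm at day 4 relative to day 2, genes of regenerating muscle and of the cornified epidermis were higher, and the muscle genes Ankrd2 and Rrad, Chil3, Serpina3n, and the metallothioneins Mt1 and Mt2 were lower. Of 20657 genes tested, 1746 (8.45%) were called with edgeR at a Benjamini-Hochberg adjusted p under 0.05, of which 1189 (5.76%) were higher and 557 (2.7%) lower at day 4. The excess of higher genes depended on the tool. DESeq2 called 1637 higher (7.92%) and 750 lower (3.63%), or 11.6% in all, and edgeR with 2 surrogate variables 1983 (9.6%) and 1326 (6.42%), whereas limma-voom with sample weights called 2888 higher (14%) and 3297 lower (16%), or 29.9% in all. More than 2-fold changes were fitted in 821 of the higher and 152 of the lower genes. The levels of the 5 and 5 libraries did not overlap in 1428 genes (6.91%), called or not, of which 731 lay higher (3.54%) and 697 lower (3.37%) at day 4. The median log2 fold change of all genes tested was -0.0089. Counts of list members are to be read against these shares, and a small list with a count near them does not stand apart from all genes. Levels are given as CPM (counts per M counts of library size, M being mega) after TMM scaling, with SD over libraries, and replicates are given in the order 1 to 5. Fold changes are day 4 over day 2, as log2 values of the edgeR fit with their standard error (SE).

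The 10 libraries held 19.9 to 39.8 M counts at day 4 and 23.4 to 47.4 M at day 2, and the series as a whole 11.8 to 58.4 M. Defining skin markers were present in all 10, among them Krt5 (3901 to 8771 CPM), Krt14 (3835 to 15585 CPM), Krt10 (100.5 to 9503 CPM), Col1a1 (1086 to 8962 CPM), Pdgfra (32.1 to 327 CPM) and Pecam1 (97.4 to 203 CPM). Some libraries stood apart. Day 4 replicate 3 lay at 123.6 on the leading principal component (37.2% of variance) and at -91.25 on the next (19.2%), beyond the other libraries on both, and day 4 replicate 4 lay at 99.07 on the third component (14.6%), where the others ran from -45.41 to 8.575. In day 2 wounds, replicates 1 and 2 lay at -6.77 and -11.03 on the leading component and replicates 3 to 5 between -74.77 and -59.42. Without day 4 replicate 3, 800 genes were higher and 396 lower, and 750 and 318 of these were among those called with it. Without day 4 replicate 4 the counts were 1591 and 853, and without both 948 and 496. The count of lower genes was 278 without day 4 replicate 1 and 325 without day 4 replicate 2. The counts of higher and lower genes were 710 and 295 without day 2 replicate 4, and 693 and 244 without day 2 replicate 5. With replicates 1 and 2 of both days alone, 48 genes were higher and 2 lower, and with replicates 3 to 5 alone 569 were higher and 99 lower. These splits, and leaving out both day 4 libraries, were chosen after seeing the data.

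The libraries that stood apart did so in genes of particular cells. The 19 tested genes of the hair shaft and its sheath summed to 11638 CPM in day 4 replicate 3, against 28.4 to 41.6 CPM in the other 4 day 4 wounds and 16.5 to 30.4 CPM in the day 2 wounds. Krt71, a keratin of the inner root sheath that holds the growing hair, was at 0.484, 0.525, 2608, 2.999 and 0.230 CPM in day 4 wounds, against 0.238, 0.463, 0.601, 0 and 0.279 CPM in day 2 wounds. Krt25, its partner keratin in that sheath, was at 0.484, 0.0263, 1624, 1.85 and 0.0575 CPM in day 4 wounds, against 0.130, 0.0231, 0, 0 and 0 CPM in day 2 wounds. Day 4 replicate 3 held nearly all of these transcripts. With it, 18 of 19 hair genes were called higher, and without it 0 of 19 were. With all 10 libraries kept, 0 were called when those 10 alone were fitted, and 1 with limma-voom and sample weights. The lone member not called was Shh. Pigment cell genes gave 3 of 8 called higher (Pmel, Dct and Tyr) and 0 of 8 without replicate 3. Dct, an enzyme of melanin synthesis, was at 9.49, 5.805, 34.8, 2.83 and 7.62 CPM at day 4, against 2.96, 2.75, 1.89, 1.49 and 1.09 CPM at day 2. Its call was lost without day 4 replicate 3 (edgeR, adjusted p = 0.115) and without day 2 replicate 5 (adjusted p = 0.0509). Lhx2, the only one of 9 tested hair follicle stem cell genes called, was not called without day 4 replicate 3 (edgeR, adjusted p = 0.145), and was called in 3 of the 10 fits that left out a library.

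Of the 12 genes with the largest called rises by the naming rule, 9 were highest in day 4 replicate 3. They are Krt33b, Krtap17-1, Crnn, Prr9, Krt28, Tchhl1, Padi3, Capn12 and Padi1. Krt33b, a hair shaft keratin, had 134 CPM in day 4 replicate 3 and 0.0288 to 0.161 CPM in the other day 4 wounds, and 0 counts in all 5 day 2 wounds. Set against a floor of 3 counts over the day 2 group, it was at least 1436-fold higher at day 4, a bound carried by that library and covering counting error only. Krtap17-1, a protein of the hair shaft, was at 53.7 CPM in day 4 replicate 3, at 0.0263 to 0.519 CPM in the others and at 0 counts in day 2 wounds. Crnn (179 CPM in replicate 3, 0.258 to 1.10 in the other day 4 wounds, 0 to 0.162 at day 2), Krt28, Tchhl1 and Padi3 lost their calls without replicate 3, at adjusted p of 0.0608 to 0.568 (edgeR). Padi3 converts arginine to citrulline in trichohyalin of the hair sheath. Prr9 and Capn12 kept theirs, at log2 3.26 (edgeR, adjusted p = 0.0346) and 2.57 (adjusted p = 0.0240), against 8.66 and 4.43 with that library. Sequences of hair keratins and keratin-associated proteins resemble each other, so reads of these families may have been split between members.

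**Figure D1:**
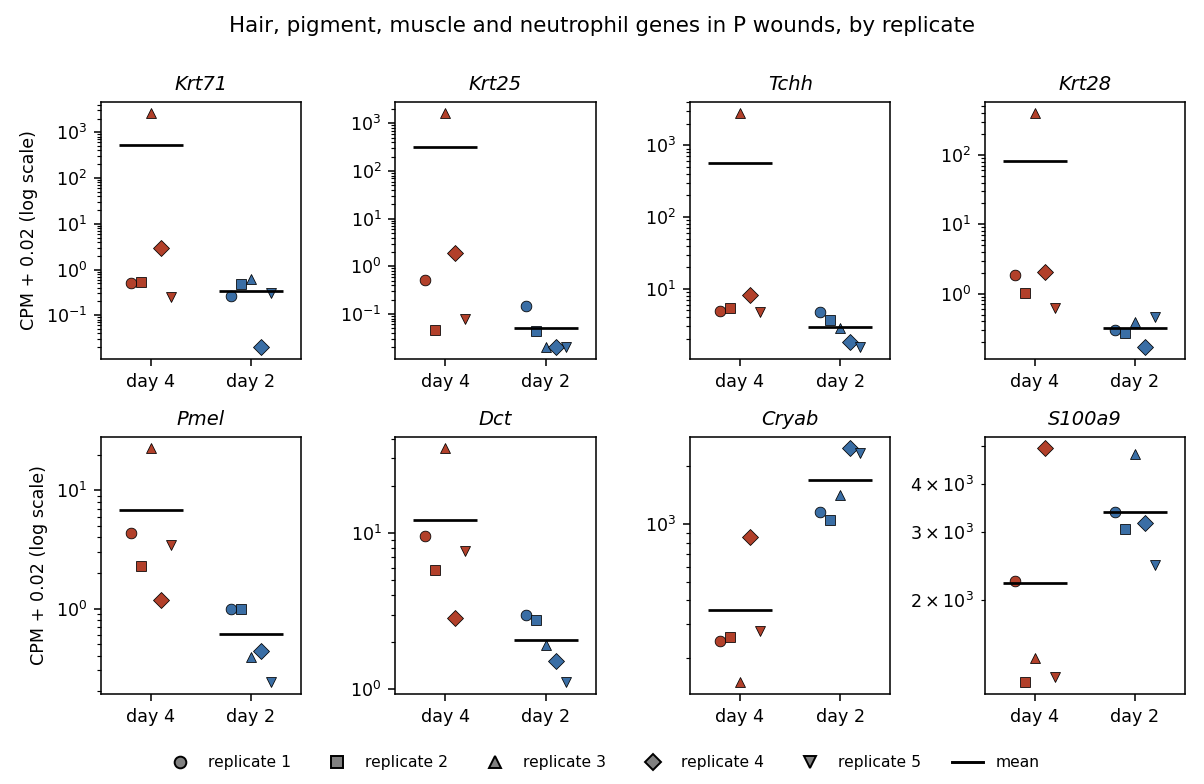
Levels of 8 genes in the 10 P wounds, on a log axis of CPM plus 0.02, with day 4 on the left and day 2 on the right; marker shapes are replicates and bars are group means. Hair and pigment genes stood high in day 4 replicate 3 (Krt71 at 2608 CPM), and Cryab and S100a9 stood high among day 4 wounds in replicate 4 (855 and 4941 CPM).

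Day 4 replicate 4 was high in muscle and neutrophil transcripts. The 18 adult skeletal muscle genes summed to 67380 CPM there, against 7049 to 19692 CPM in the other day 4 wounds and 19990 to 55548 CPM in day 2 wounds, and the 18 neutrophil genes to 10773 CPM, against 2888 to 4932 CPM in the other day 4 wounds and 5554 to 10826 CPM in day 2 wounds. In whole tissue, more cells of a type and more RNA per cell cannot be told apart. Beyond the values given with and without these libraries, their part in the results was not tested.

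Genes of newly formed muscle fibres were higher at day 4. All gene lists used here were chosen with earlier results of these data known, so counts of called members are descriptive and no separate support. Of 16 muscle regeneration genes tested, 8 were called higher at day 4 and 0 lower, with a median log2 fold change of 1.16, and 3 did not overlap between the days. Of all genes tested, 5.76% were called higher and 3.54% lay higher without overlap. Leaving out any of the 10 libraries gave 6 to 8 called, and leaving out day 4 replicates 3 and 4 together gave 9. Replicates 1 and 2 alone gave 6 and replicates 3 to 5 alone gave 3. Limma-voom with sample weights called 10 higher and 1 lower, against 14% and 16% of all genes tested. The PD wounds, which share no library with this comparison, had 7 of 16 higher and 0 lower, against 2.67% and 1.59% of all genes.

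Myh3 (ENSMUSG00000020908, GRCm39 chromosome 11, 66969126 to 66993117, plus strand) encodes embryonic myosin heavy chain, the motor of newly formed fibres. It was at 605, 317, 45.3, 447 and 288 CPM in day 4 wounds, against 2.59, 2.52, 6.38, 5.86 and 12.1 CPM in day 2 wounds. Every day 4 wound lay above every day 2 wound, with replicate 3 lowest at day 4. The rise was 57.9-fold (log2 5.86, SE 0.72, edgeR, adjusted p = 1.39e-05). Unwounded skin held 0.157 to 0.858 CPM, and P wounds of day 12 held 21.5 to 149.5 CPM (n = 6).

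Actc1 (ENSMUSG00000068614, chromosome 2, 113876266 to 113884043, minus strand), the cardiac alpha actin that skeletal fibres also use while they form, followed the same order. Day 4 wounds held 368, 200, 19.9, 225 and 145 CPM, against 3.35, 1.99, 8.55, 7.67 and 8.77 CPM in day 2 wounds, without overlap. The rise was 31.7-fold (log2 4.99, SE 0.67, edgeR, adjusted p = 4.58e-05). In unwounded skin Actc1 was at 44.9 to 53.03 CPM, above all day 2 wounds.

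Tnnt2 (ENSMUSG00000026414, chromosome 1, 135763738 to 135780315, plus strand) encodes the cardiac troponin T that is also made in embryonic skeletal muscle. It was at 182, 113, 32.3, 138 and 77.6 CPM in day 4 wounds, against 14.4, 11.9, 20.2, 14.3 and 22.1 CPM in day 2 wounds. The groups did not overlap, and the rise was 6.54-fold (log2 2.71, SE 0.44, edgeR, adjusted p = 0.000345). Its promoter is shown because it holds 2 copies of the letters CAGCTG, an E-box of the kind that Myod1 and Myog bind. The 250 bases upstream of the RefSeq start are given here with these letters in capitals, at -223 and -157, located by exact match at chr1:135763822-135764071 of GRCm39, plus strand. This window lies inside the gene span given above, which is from GENCODE. Both copies are thus upstream of the RefSeq start but downstream of the GENCODE gene start. CAGCTG is its own reverse complement, so the search covers both strands.
Tnnt2: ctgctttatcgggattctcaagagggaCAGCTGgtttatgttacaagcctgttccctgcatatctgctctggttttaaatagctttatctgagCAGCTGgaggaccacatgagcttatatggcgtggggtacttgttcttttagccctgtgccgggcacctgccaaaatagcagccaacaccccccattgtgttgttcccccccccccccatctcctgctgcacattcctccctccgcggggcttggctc
Of the 12 promoters that RefSeq's table gives for 11 of the 16 genes, 3 (25%) held CAGCTG, against 4271 of all 32851 (13%). A match is a description of the letters and not a measured site.

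Mymk, the membrane protein that starts myoblast fusion, was at 95.9, 60.9, 8.93, 79.0 and 41.7 CPM in day 4 wounds, against 3.03, 3.10, 13.4, 6.90 and 10.1 CPM in day 2 wounds. Only day 4 replicate 3 reached into the range of day 2, and the rise was 7.91-fold (log2 2.98, SE 0.57, edgeR, adjusted p = 0.00148). Its partner Mymx was at 1.87 to 13.1 CPM at day 4 (median 9.09) and 1.79 to 6.98 CPM at day 2 (median 5.12), and was not called (log2 0.79, SE 0.53, edgeR, adjusted p = 0.404). Myl4 and Myh8, the embryonic light chain and perinatal heavy chain of myosin, were higher by log2 2.31 (SE 0.49) and 2.39 (SE 0.54), at edgeR adjusted p of 0.0038 and 0.00585. For these genes too, day 4 replicate 3 lay within the day 2 range while the other 4 day 4 wounds lay above it. Leaving out any single library kept the calls of Myh3, Actc1, Tnnt2, Mymk, Myl4 and Myh8, while with replicates 3 to 5 alone Mymk, Myl4 and Myh8 were not called (edgeR, adjusted p = 0.0888 to 0.163).

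Ncam1, an adhesion molecule of newly formed fibres and of nerves, was higher by log2 1.12 (SE 0.31, edgeR, adjusted p = 0.0187), a call lost without day 4 replicate 1 (adjusted p = 0.0615) or day 2 replicate 4 (adjusted p = 0.0568). Megf10, a satellite cell receptor, was higher by log2 1.19 (SE 0.34, edgeR, adjusted p = 0.0246). That call was lost without day 4 replicate 1 or 5, or without day 2 replicate 1, 4 or 5, at edgeR adjusted p of 0.0534 to 0.0942.

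The factors that act before fusion did not pass the test. Myog was at 74.8, 49.2, 20.3, 71.8 and 39.0 CPM in day 4 wounds, against 65.1, 40.9, 85.0, 109 and 149 CPM in day 2 wounds (log2 -0.82, SE 0.44, edgeR, adjusted p = 0.278). Myod1 had a log2 change of -0.40 (SE 0.44, edgeR, adjusted p = 0.646), and Pax7, the satellite cell factor, one of 0.74 (SE 0.44, adjusted p = 0.329). Unwounded skin held 4.93 to 8.28 CPM of Myog, below every P wound of day 4 and day 2. Chrng, the fetal subunit of the acetylcholine receptor, was not called either (log2 1.32, SE 0.54, edgeR, adjusted p = 0.127), though limma-voom called it higher (adjusted p = 0.0072).

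**Figure D2:**
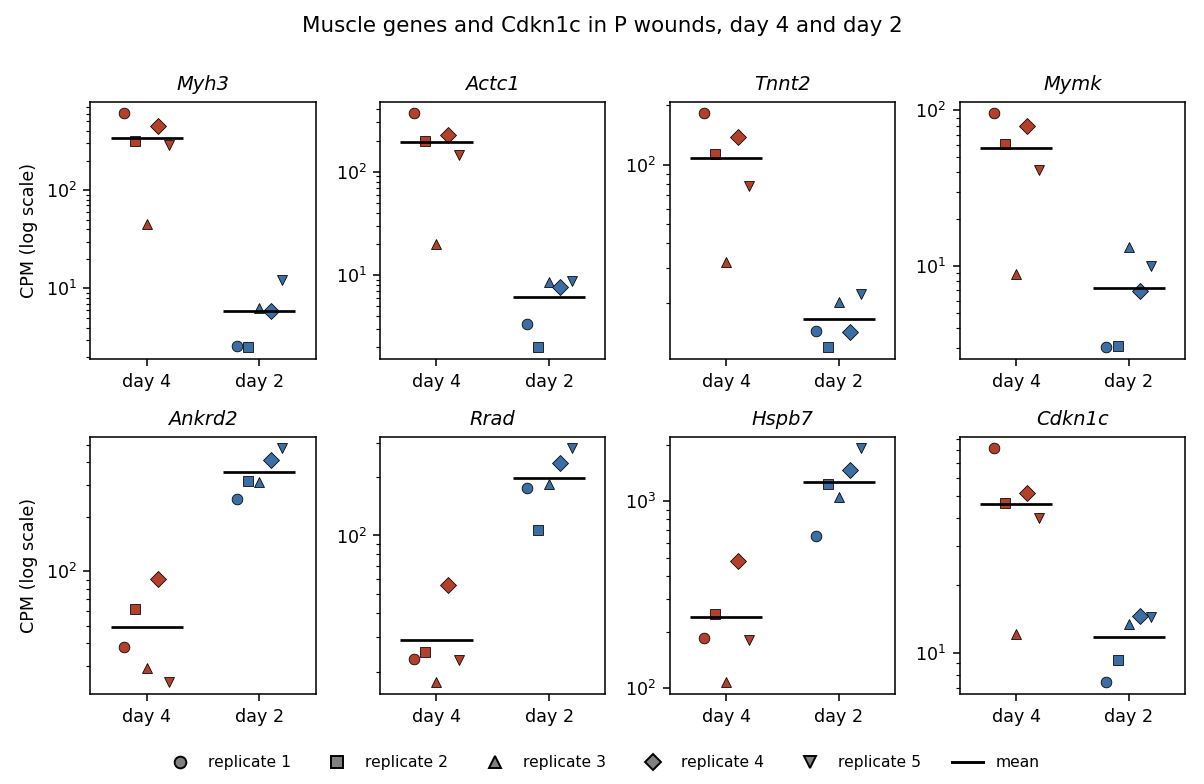
Levels of 7 muscle genes and of Cdkn1c in P wounds, in CPM on a log axis, with day 4 on the left and day 2 on the right; marker shapes are replicates and bars are group means. Myh3, Actc1 and Tnnt2 lay higher in every day 4 wound than in any day 2 wound, Mymk and Cdkn1c in all but replicate 3, and Ankrd2, Rrad and Hspb7 lay lower in every day 4 wound.

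Of the 12 largest called falls by the naming rule, 8 were in genes expressed by muscle fibres (Ankrd2, Rrad, Hspb7, Mustn1, Nmrk2, Cryab, Trim63 and Pdk4), a grouping made after their values were seen. Ankrd2 (ENSMUSG00000025172, chromosome 19, 42024274 to 42033552, plus strand), a stretch-responsive ankyrin repeat protein of the sarcomere, was at 38.3, 62.1, 29.1, 90.9 and 24.4 CPM in day 4 wounds, against 251, 315, 311, 408 and 476 CPM in day 2 wounds. The groups were well separated, and Ankrd2 fell by 2.85 on the log2 scale (SE 0.61, edgeR, adjusted p = 0.00406). Rrad (ENSMUSG00000031880, chromosome 8, 105354695 to 105357990, minus strand), a small GTPase that limits calcium channels, was at 23.1, 25.1, 17.6, 55.7 and 23.03 CPM at day 4, against 175, 106, 184, 237 and 280 CPM at day 2. It fell by 2.77 (SE 0.47, edgeR, adjusted p = 0.000514). In both genes day 4 replicate 4 was the highest day 4 wound and still lay below all of day 2.

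Hspb7, a small heat shock protein of muscle, was at 187, 249.6, 108, 479 and 182 CPM in day 4 wounds, against 649.6, 1231, 1054, 1465 and 1918 CPM in day 2 wounds, and fell by 2.39 (log2, SE 0.60, edgeR, adjusted p = 0.0118). Cryab, a chaperone of the Z-disc, was at 245, 257, 149, 855 and 275 CPM in day 4 wounds, against 1151, 1048, 1407, 2473 and 2346 CPM in day 2 wounds, and fell by 2.24 (SE 0.59, edgeR, adjusted p = 0.0155). Without day 4 replicate 4 the fall of Cryab was 2.83 (log2). Mustn1, a nuclear protein of growing and injured muscle, was at 77.0 to 317 CPM at day 4 and 368 to 1268 CPM at day 2, and fell by 2.39 (log2, SE 0.53, edgeR, adjusted p = 0.00499). Each of these 5 calls held without any single library.

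Nmrk2, a muscle kinase of NAD synthesis, and Trim63, the ubiquitin ligase MuRF1 of muscle wasting, fell by 2.39 and 2.22 (log2, SE 0.66 and 0.62, edgeR, adjusted p = 0.0206 and 0.0227). Nmrk2 was not called without day 4 replicate 2, 3 or 5 or day 2 replicate 5 (adjusted p = 0.0514 to 0.0603, edgeR), nor Trim63 without day 4 replicate 1, 3 or 5 or day 2 replicate 5 (adjusted p = 0.0532 to 0.0731, edgeR). Pdk4, which turns off pyruvate oxidation in fasting muscle, fell by 2.19 (SE 0.65, edgeR, adjusted p = 0.0316) and was called in 3 of the 10 fits that left out a library. Prkg1, the cyclic GMP-dependent kinase of smooth muscle and other cells, was at 5.33, 5.99, 3.51, 7.38 and 5.81 CPM at day 4, against 20.9, 33.5, 23.7, 14.51 and 27.9 CPM at day 2. It fell by 2.11 (log2, SE 0.35, edgeR, adjusted p = 0.000402) and was called in all 10 of those fits.

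The contractile genes of the adult fibre gave no call with edgeR, though limma-voom with sample weights called 11 of 18 lower, against 16% of all genes. None of 18 adult skeletal muscle genes passed edgeR's threshold in either direction, and their median log2 fold change was -0.74, or -1.46 without day 4 replicate 4. Ttn, the titin gene, was at 773, 788, 421, 2517 and 647 CPM in day 4 wounds, against 1021, 2254, 2584, 2439 and 2758 CPM in day 2 wounds (log2 -1.10, SE 0.58, edgeR, adjusted p = 0.26). Ryr1, the calcium release channel, had a log2 change of -1.09 (SE 0.57, edgeR, adjusted p = 0.258). Both genes stood highest among day 4 wounds in replicate 4, within the day 2 range. Of the 18 genes, 0 had p under 0.05 before adjustment, against 22.5% of all genes tested, and DESeq2 called 0. With 2 surrogate variables 1 was lower, against 6.42% of all genes tested. Ttn was called lower with limma-voom (adjusted p = 0.0072) and with 2 surrogate variables (edgeR, adjusted p = 0.0479), and Ryr1 with limma-voom (adjusted p = 0.0188).

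Genes of the cornified epidermis were higher at day 4. Of 18 differentiated keratinocyte genes tested, 11 were called higher and 0 lower, with a median log2 fold change of 2.54, and all 18 had positive changes. Of 18 late cornified envelope genes, 12 were called higher and 0 lower, with a median of 3.39. Of all genes tested, 5.76% were called higher. Without day 4 replicate 3 the counts were 9 and 12, without day 4 replicate 4 they were 13 and 12, and without both 11 and 12. Leaving out any of the 10 libraries gave 5 to 13 for the differentiated keratinocyte genes and 8 to 18 for the late cornified envelope genes. Of the differentiated keratinocyte genes, 6 were called without day 4 replicate 2 or day 2 replicate 3, and 5 without day 2 replicate 4 or 5. The differentiated keratinocyte genes summed to 3860 and 3696 CPM in day 2 replicates 1 and 2 and to 667 to 878 CPM in day 2 replicates 3 to 5. At day 4 they summed to 23225, 32494 and 19036 CPM in replicates 1, 2 and 5, and to 7151 and 4146 CPM in replicates 3 and 4. With replicates 1 and 2 of both days alone, 0 of the genes in either list were called, and with replicates 3 to 5 alone 9 and 13 were. The 10 libraries fitted alone gave 7 and 7, and limma-voom with sample weights 18 and 18, where it called 14% of all genes higher. In PD wounds 3 and 2 were called higher, against 2.67% of all genes tested.

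Krt1 (ENSMUSG00000046834, chromosome 15, 101753861 to 101759229, minus strand), the keratin of cells that have left the basal layer, was at 7032, 11147, 1857, 1387 and 6409.8 CPM in day 4 wounds, against 574, 864, 176, 179 and 193 CPM in day 2 wounds. The lowest day 4 wound lay above the highest day 2 wound. The rise was 14.02-fold (log2 3.81, SE 0.82, edgeR, adjusted p = 0.00406). Its partner Krt10 was higher by log2 3.72 (SE 0.95, edgeR, adjusted p = 0.0127), with day 4 replicate 4 (708 CPM) inside the range of day 2 (100.5 to 785 CPM).

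Flg (ENSMUSG00000102439, chromosome 3, 93180830 to 93200993, plus strand) encodes filaggrin, which bundles keratin in the granular layer. It was at 820.2, 1077, 204, 113 and 742 CPM in day 4 wounds, against 28.7, 87.5, 4.80, 1.49 and 1.95 CPM in day 2 wounds. No library overlapped, and the rise was 23.7-fold (log2 4.57, SE 1.06, edgeR, adjusted p = 0.00684). Casp14, the protease that processes filaggrin, was at 408, 479, 152, 168 and 392 CPM at day 4, against 44.7, 57.9, 20.6, 6.63 and 10.1 CPM at day 2. Casp14 was higher by log2 3.51 (SE 0.55, edgeR, adjusted p = 0.00024). The calls of Krt1, Krt10, Flg and Casp14 held without any single library.

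Lor, loricrin of the cornified envelope, was at 2163, 2994, 490.2, 214 and 1764 CPM in day 4 wounds, against 271, 246, 13.95, 13.6 and 10.4 CPM in day 2 wounds. Day 4 replicate 4 lay below day 2 replicates 1 and 2. It was higher by log2 3.78 (SE 1.08, edgeR, adjusted p = 0.0252), a call lost without day 4 replicate 2 or day 2 replicate 3, 4 or 5 (adjusted p = 0.0602 to 0.0715, edgeR). Krtdap, a secreted protein of differentiating keratinocytes, was at 1353, 1859.8, 556, 539 and 1048 CPM at day 4, against 522, 401, 224, 123 and 143 CPM at day 2. Krtdap was higher by log2 1.92 (SE 0.51, edgeR, adjusted p = 0.0166), which was lost without day 4 replicate 2 or day 2 replicate 4 or 5 (adjusted p = 0.0581 to 0.0592, edgeR).

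Klk5 and Klk7, proteases that shed the outer layer, were higher as well. Klk5 was at 184, 214, 65.2, 33.7 and 215 CPM at day 4, against 34.5, 27.7, 3.51, 1.903 and 1.80 CPM at day 2 (edgeR, log2 3.35, SE 0.91, adjusted p = 0.0189). The call was lost without day 2 replicate 3, 4 or 5 (adjusted p = 0.0519 to 0.0578, edgeR). Klk7 was higher by log2 2.53 (SE 0.75, edgeR, adjusted p = 0.032) and called in 4 of 10 fits that left out a library. Their inhibitor Spink5 was at 109.7 to 259 CPM at day 4 (median 204) and 21.3 to 121 CPM at day 2 (median 53.8), and was not called (log2 1.74, SE 0.59, edgeR, adjusted p = 0.0595). Spink5 was called higher with DESeq2 (adjusted p = 0.0185), limma-voom (adjusted p = 2.8e-05) and 2 surrogate variables (edgeR, adjusted p = 0.0025). With the 10 libraries fitted alone Spink5 was called (edgeR, adjusted p = 0.0443), and Klk5 and Klk7 were not (adjusted p = 0.0579 and 0.0975).

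The promoters of 4 of these genes are shown because they hold the letters TGANTCA, where N is any base. With C or G at N these letters are the core of an AP-1 site, which factors of the Fos and Jun families bind in keratinocytes. The Flg copy reads TGAATCA and lies outside that core. They were chosen after their letters were seen. Each run is the 250 bases upstream of the RefSeq start, from a table made on GRCm38.p6 and located by exact match in GRCm39, with the motif in capitals. TGANTCA is its own reverse complement, so both strands are covered. Lor lies at chr3:91990450-91990699 (minus strand, motif at -48), Flg at chr3:93180603-93180852 (plus strand, -103), Ivl, the gene of involucrin, at chr3:92481043-92481292 (minus strand, -116) and Krtdap at chr7:30487080-30487329 (plus strand, -81).
Lor: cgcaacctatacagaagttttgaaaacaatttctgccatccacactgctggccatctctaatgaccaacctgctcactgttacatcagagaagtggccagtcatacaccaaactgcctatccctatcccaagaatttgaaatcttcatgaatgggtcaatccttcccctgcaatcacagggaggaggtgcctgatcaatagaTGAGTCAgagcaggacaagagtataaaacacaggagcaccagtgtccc
Flg: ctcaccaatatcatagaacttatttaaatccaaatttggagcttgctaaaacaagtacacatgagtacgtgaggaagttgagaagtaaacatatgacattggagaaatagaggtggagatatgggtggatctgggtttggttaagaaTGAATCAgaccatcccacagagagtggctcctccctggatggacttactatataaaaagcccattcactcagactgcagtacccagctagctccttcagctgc
Ivl: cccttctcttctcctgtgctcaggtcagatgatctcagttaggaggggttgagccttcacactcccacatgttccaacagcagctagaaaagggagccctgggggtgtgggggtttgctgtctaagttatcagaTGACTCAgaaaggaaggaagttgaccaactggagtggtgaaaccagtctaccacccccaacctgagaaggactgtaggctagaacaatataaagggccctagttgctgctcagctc
Krtdap: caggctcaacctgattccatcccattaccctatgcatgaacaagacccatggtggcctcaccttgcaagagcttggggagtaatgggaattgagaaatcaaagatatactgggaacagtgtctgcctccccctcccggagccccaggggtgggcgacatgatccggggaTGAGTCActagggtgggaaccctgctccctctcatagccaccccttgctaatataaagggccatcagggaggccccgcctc
Of the 14 promoters that the table gives for the differentiated keratinocyte genes, 6 (42.9%) held TGANTCA, against 2217 of all 32851 promoters (6.7%). Both counts take any base at N and so include letters outside the AP-1 core. Of the 17 late cornified envelope promoters 0 held TGANTCA, and 0 held CAGCTG, which says only that they are not in these windows.

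Late cornified envelope proteins line the inner face of dead surface cells, and their genes lie side by side on chromosome 3. All 12 tested members of the Lce1 family were called higher, with log2 changes of 2.81 to 4.09, and 10 of them did not overlap between the days. Of all genes tested, 3.54% lay higher without overlap. Lce1g (ENSMUSG00000027919, chromosome 3, 92657455 to 92659645, minus strand) was at 117, 161, 45.9, 48.6 and 118 CPM in day 4 wounds, against 12.3, 11.6, 3.19, 0.684 and 0.744 CPM in day 2 wounds. The rise was 17.02-fold (log2 4.09, SE 0.81, edgeR, adjusted p = 0.00202). Day 2 replicates 1 and 2 were the highest of their group here too. The 6 members of the Lce3 family had log2 changes of 2.47 to 3.21 and were not called. Lce genes are near copies of each other, so reads may have been split among them and values of single members are uncertain.

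Some prostaglandin and lipoxygenase enzymes were higher as well, among them Aloxe3 of the barrier lipids. Of 15 prostaglandin and lipoxygenase genes, 3 were called higher and 0 lower, with a median log2 change of 0.13. Aloxe3, which acts with Alox12b on the ceramides of the outer layer, was at 72.8, 96.0, 25.3, 53.5 and 70.9 CPM in day 4 wounds, against 26.3, 16.1, 10.4, 8.12 and 5.08 CPM in day 2 wounds. Only day 4 replicate 3 fell inside the range of day 2. Aloxe3 was higher by log2 2.27 (SE 0.40, edgeR, adjusted p = 0.000715). Alox12 was higher by 1.97 (SE 0.48, edgeR, adjusted p = 0.00863). Alox12b itself had a log2 change of 2.20 and was not called (SE 0.80, edgeR, adjusted p = 0.0855). It was called higher with DESeq2 (adjusted p = 0.0246) and with limma-voom (adjusted p = 3.1e-05). By edgeR it was called with the replicate number as a block (adjusted p = 0.0306) and with 2 surrogate variables (adjusted p = 0.00024). Hpgd, which inactivates prostaglandins, was at 10.01, 13.9, 13.8, 12.7 and 10.1 CPM at day 4, against 8.37, 9.28, 4.20, 2.77 and 4.28 CPM at day 2. It was higher by log2 1.06 (SE 0.30, edgeR, adjusted p = 0.0253) and lost without day 4 replicate 2 or 3 or day 2 replicate 3, 4 or 5 (adjusted p = 0.0575 to 0.0861, edgeR).

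Padi1, which citrullinates keratins and filaggrin of the epidermis, was at 4.13, 5.25, 60.4, 3.81 and 4.34 CPM in day 4 wounds, against 0.303, 0.393, 0.0924, 0.297 and 0.341 CPM in day 2 wounds. The 2 groups were far apart and day 4 replicate 3 was the highest. Its log2 change was 5.70 (SE 0.91, edgeR, adjusted p = 0.000272), or 3.87 without that library (adjusted p = 0.0012).

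**Figure D3:**
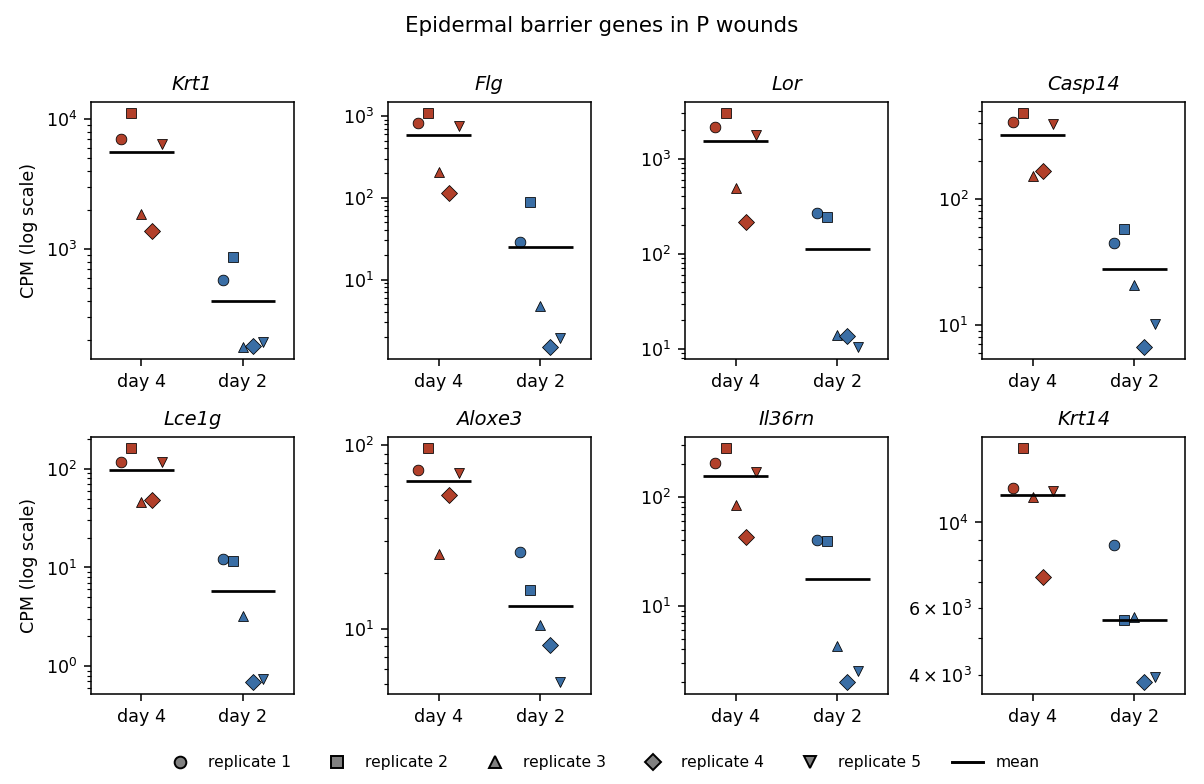
Levels of 8 epidermal genes in P wounds, in CPM on log axes, with day 4 on the left and day 2 on the right; marker shapes are replicates and bars are group means. Krt1, Flg, Casp14, Lce1g and Il36rn did not overlap between the days, and day 2 replicates 1 and 2 lay above replicates 3 to 5 in most panels.

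Basal keratinocytes gave no call by edgeR, with 0 of 13 tested genes of the basal layer and its anchoring junctions passing in either direction (median log2 change 0.28). Before adjustment 2 had p under 0.05, DESeq2 called 1 and limma-voom called 3 higher, against 22.5%, 11.6% and 14% of all genes. Krt14, the basal keratin, was at 12317, 15585, 11631, 7193 and 12039 CPM in day 4 wounds, against 8739.5, 5583, 5674, 3835 and 3964 CPM in day 2 wounds. Its log2 change was 1.08 (SE 0.36, edgeR, adjusted p = 0.0539), and without day 4 replicate 4 it was called at 1.24 (adjusted p = 0.028). Krt14 was also called higher with DESeq2 (adjusted p = 0.0217) and limma-voom (adjusted p = 0.0003). By edgeR it was called with the 10 libraries alone (adjusted p = 0.0403) and with 2 surrogate variables (adjusted p = 0.0191). Krt5, its partner, had a log2 change of 0.53 (SE 0.28, edgeR, adjusted p = 0.272).

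Of 14 wound keratinocyte genes, 2 were called higher and 0 lower, with a median log2 change of 1.75. With 2 surrogate variables 10 were higher, against 9.6% of all genes tested. With limma-voom 10 were higher and 1 lower, against 14% and 16%. Gjb6, a gap junction connexin, was at 83.3, 80.005, 64.4, 59.3 and 104 CPM at day 4, against 46.8, 19.8, 9.70, 4.82 and 5.74 CPM at day 2. It was higher by log2 2.17 (SE 0.58, edgeR, adjusted p = 0.0165), lost without day 2 replicate 4 (adjusted p = 0.0558) or 5 (adjusted p = 0.0582). Krt17 was higher by log2 1.72 (SE 0.48, edgeR, adjusted p = 0.0234), with 5824 CPM in day 4 replicate 3, and was not called without it (log2 1.10, adjusted p = 0.161). It was also lost without day 2 replicate 2, 3, 4 or 5 (adjusted p = 0.0528 to 0.0789, edgeR). Krt6a and Krt16, the keratins of migrating epidermis, were at 1963 to 5958 and 1953 to 6301 CPM at day 4, and at 595 to 4409 and 214 to 3034 CPM at day 2. They were not called (log2 1.29 and 1.88, edgeR, adjusted p = 0.243 and 0.273), and against unwounded skin (156 to 207 and 3.89 to 5.77 CPM) all 10 P wounds lay higher. Both were called higher with limma-voom (adjusted p = 0.0021 and 0.002) and with 2 surrogate variables (edgeR, adjusted p = 0.0092 and 0.0063). With the replicate number as a block Krt16 was called too (edgeR, adjusted p = 0.044).

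Fgf22, a fibroblast growth factor of the epidermis and hair follicle, was at 10.8, 16.4, 13.01, 1.38 and 9.37 CPM in day 4 wounds, against 1.25, 1.09, 0, 0.0297 and 0.0310 CPM in day 2 wounds. Day 4 replicate 4 lay just above day 2. Its log2 change was 4.31 (SE 0.99, edgeR, adjusted p = 0.00627), resting on 107 counts over the 5 day 2 wounds. Of 16 interleukin-1 family genes, 3 were called higher and 0 lower (median log2 change 0.0031), namely Il18, Il36a and Il36rn, which keratinocytes express. Without day 4 replicate 2 or day 2 replicate 3, 4 or 5, 1 of the 16 was called. Limma-voom called 4 higher and 3 lower, against 14% and 16% of all genes tested.

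Il18 was at 69.8, 73.3, 44.3, 29.99 and 51.2 CPM at day 4, against 29.6, 22.6, 17.2, 11.9 and 12.6 CPM at day 2 (log2 1.52, SE 0.38, edgeR, adjusted p = 0.0115). Il36rn, which blocks the interleukin-36 receptor, was at 206, 277, 84.1, 43.0 and 167 CPM at day 4, against 40.1, 39.5, 4.25, 1.99 and 2.51 CPM at day 2 (log2 3.13, SE 0.87, edgeR, adjusted p = 0.0214). Il36a, one of the ligands it blocks, was at 5.53 to 40.2 CPM at day 4 and 0.0930 to 5.23 CPM at day 2 (log2 3.35, SE 1.06, edgeR, adjusted p = 0.044). None of the 3 overlapped between the days. The call of Il18 held without any single library, that of Il36a held in 3 of 10 such fits, and that of Il36rn was lost without day 4 replicate 2 or day 2 replicate 3, 4 or 5 (adjusted p = 0.0539 to 0.0651, edgeR). Il1b, made mainly by myeloid cells, did not pass (log2 0.30, SE 0.98, edgeR, adjusted p = 0.903).

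Skint genes encode butyrophilin-like proteins of keratinocytes, of which Skint1 is needed in mice for the dendritic epidermal T cells to develop. Of 9 tested genes in the list of these T cells and Skint proteins, 4 were called higher and 0 lower, with a median log2 change of 1.73, and all 4 were Skint genes. Skint1 was at 11.8, 13.6, 6.28, 3.40 and 7.30 CPM in day 4 wounds, against 2.03, 3.47, 2.13, 0.952 and 1.49 CPM in day 2 wounds (log2 2.07, SE 0.47, edgeR, adjusted p = 0.00573). Skint4, Skint7 and Skint9 were higher by log2 1.36 to 2.27 (edgeR, adjusted p = 0.0326 to 0.0484), and each was lost in at least 5 of the 10 fits that left out a library. Trdc, the constant chain of the T cell receptor itself, was at 1.495 to 4.20 CPM at day 4 and 2.26 to 5.92 CPM at day 2 and was not called (log2 -0.66, SE 0.36, edgeR, adjusted p = 0.278). Unwounded skin held more Skint4, Skint7 and Skint9 than any P wound of day 4 or day 2, with Skint7 at 55.1 to 73.1 CPM against at most 5.08 CPM in these wounds. Skint genes resemble each other and share the limit on counting given above.

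Myeloid and inflammatory genes gave few calls in the main edgeR fit. Of 18 neutrophil genes, 0 were called higher and 2 lower (median log2 change -0.54), or 1 lower without day 4 replicate 3 and 0 without replicates 3 and 4. Limma-voom with sample weights called 7 of them lower, against 16% of all genes tested. In edgeR, 4 were lower with the 10 libraries fitted alone, 4 with the replicate number as a block and 4 with 2 surrogate variables. The 2 called in the main fit were Ngp and Camp, proteins of the secondary granules that neutrophils load while they mature in the marrow. Ngp was at 9.91, 3.55, 7.33, 10.7 and 0.891 CPM in day 4 wounds, against 34.4, 48.6, 65.4, 45.6 and 53.6 CPM in day 2 wounds, and fell by 2.94 (log2, SE 0.91, edgeR, adjusted p = 0.0419). Camp was at 0 to 0.561 CPM at day 4 and 0.981 to 2.097 CPM at day 2 and fell by 2.24 (log2, SE 0.71, edgeR, adjusted p = 0.0429). Neither gene overlapped between the days, and both were called in 2 of the 10 fits that left out a library.

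Other abundant neutrophil genes overlapped or missed the threshold. S100a9, a subunit of calprotectin, was at 2239.9, 1219, 1413, 4941 and 1259 CPM in day 4 wounds, against 3385, 3043, 4788, 3166 and 2455 CPM in day 2 wounds (log2 -0.60, SE 1.03, edgeR, adjusted p = 0.794). Mmp8, the neutrophil collagenase, did not overlap (5.62 to 37.7 CPM at day 4, 52.0 to 68.1 CPM at day 2) but was not called (log2 -1.99, SE 0.74, edgeR, adjusted p = 0.093). It was called without day 4 replicate 4 (log2 -2.61, edgeR, adjusted p = 0.031), the library highest in neutrophil genes. Mmp8 was also called lower with limma-voom (adjusted p = 8.1e-07) and with 2 surrogate variables (edgeR, adjusted p = 0.0461). The same held with the 10 libraries fitted alone (edgeR, adjusted p = 0.0315) and with the replicate block (edgeR, adjusted p = 0.0183).

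The largest called fall among named genes was that of Chil3 (ENSMUSG00000040809, chromosome 3, 106054870 to 106074880, minus strand), a chitinase-like protein secreted by monocytes, alternatively activated macrophages and maturing neutrophils. It was at 21.9, 11.3, 8.598, 34.5 and 33.2 CPM in day 4 wounds, against 247, 126, 218, 229 and 240.04 CPM in day 2 wounds. The groups were wide apart, and Chil3 fell by 3.28 (log2, SE 0.70, edgeR, adjusted p = 0.00383), a call that held without any single library. In the list of alternative and resident macrophage genes, 1 of 16 was lower (Chil3) and 1 higher, with a median of 0.41. The higher one was Apoe, a lipid carrier of macrophages and skin, at 2478, 2222, 5613, 2903 and 2461 CPM at day 4, against 1155, 1112, 1622, 1733 and 1838 CPM at day 2 (log2 1.07, SE 0.28, edgeR, adjusted p = 0.0155). Without day 4 replicate 3 Apoe was not called (edgeR, log2 0.75, adjusted p = 0.096).

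In the acute phase and antimicrobial list, 2 of 14 genes were lower and 2 higher. Serpina3n, a protease inhibitor induced by interleukin-6 type signals, was at 395, 277, 153, 102 and 247 CPM in day 4 wounds, against 577, 978, 804, 562 and 1173 CPM in day 2 wounds, and fell by 1.80 (log2, SE 0.47, edgeR, adjusted p = 0.014). Its neighbour Serpina3m, not in the list, was at 4.10, 2.55, 1.94, 1.56 and 1.52 CPM at day 4, against 6.53, 17.5, 18.2, 9.28 and 28.1 CPM at day 2, and fell by 2.76 (SE 0.45, edgeR, adjusted p = 0.000294). These genes are close copies, so their reads may be shared. Lcn2, an iron-scavenging protein of neutrophils and stressed epithelium, was at 51.9 to 226 CPM at day 4 and 263 to 429.8 CPM at day 2 and fell by 1.63 (SE 0.45, edgeR, adjusted p = 0.0216). It was lost without day 4 replicate 2 or 5 or day 2 replicate 4 or 5 (adjusted p = 0.0503 to 0.0662, edgeR).

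The higher ones were S100a7a and Defb14, antimicrobial proteins of keratinocytes. S100a7a was at 2.58, 2.07, 29.4, 19.2 and 2.39 CPM at day 4, against 2.05, 0.949, 0.647, 0.535 and 0.775 CPM at day 2 (log2 3.46, SE 0.73, edgeR, adjusted p = 0.00369). Replicates 3 and 4 of day 4 carried most of it, and without both it was not called (edgeR, log2 1.22, adjusted p = 0.27). Defb14 was at 8.27, 9.82, 5.87, 41.6 and 9.40 CPM at day 4 and 1.02 to 10.1 CPM at day 2 (edgeR, log2 2.00, SE 0.64, adjusted p = 0.0474). It was not called without day 4 replicate 4 (log2 1.19, edgeR, adjusted p = 0.22) and was called in 3 of 10 such fits.

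No gene was called by edgeR in the lists of neutrophil attractants (7 tested), interleukin-6 family (12), Tnf and NF-kB (15), CC chemokines and receptors (19), monocytes and macrophages (15), interferon-induced genes (21), MHC class II and dendritic cells (15), T cells (18), B cells (7), mast cells (12), complement (12), or red cells and platelets (9). Of these 161 different genes, 19 had p under 0.05 before adjustment, against 22.5% of all genes tested, and DESeq2 called 3. Limma-voom with sample weights made 14 higher and 32 lower calls in these lists, against 14% and 16% of all genes tested. The lower ones included 10 of 15 Tnf and NF-kB, 5 of 19 chemokine, 4 of 12 interleukin-6 family and 4 of 15 monocyte and macrophage genes. Those lists held 1, 2, 1 and 3 higher calls, in that order. With 2 surrogate variables 7 calls were higher and 6 lower, against 9.6% and 6.42% of all genes tested. Il6 was at 2.49, 2.13, 0.636, 2.19 and 8.19 CPM in day 4 wounds, against 14.8, 9.16, 8.92, 11.3 and 6.32 CPM in day 2 wounds (log2 -1.68, SE 0.66, edgeR, adjusted p = 0.116). Ccl2, which draws monocytes, was at 12.6 to 36.1 CPM at day 4 and 49.3 to 89.1 CPM at day 2, without overlap, and missed the threshold (log2 -1.57, SE 0.57, edgeR, adjusted p = 0.0821). In the chemokine list 4 of 19 genes lay lower without overlap (Ccl2, Ccl7, Ccl9 and Ccr2), against 3.37% of all genes. Tnf had a log2 change of -0.88 (SE 0.67, edgeR, adjusted p = 0.474), with day 4 replicate 4 at 277 CPM inside the day 2 range. Without that library 3 of the 15 Tnf and NF-kB genes were called lower, and with it 0 were. Il6, Ccl2 and Tnf were each called lower with limma-voom (adjusted p = 0.0022, 3.5e-05 and 0.00053). Ccl2 was also called lower with DESeq2 (adjusted p = 0.0423) and with 2 surrogate variables (edgeR, adjusted p = 0.048). The same held with the 10 libraries fitted alone (edgeR, adjusted p = 0.0148) and with the replicate block (edgeR, adjusted p = 0.0279). C1qa, a complement subunit made by macrophages, had a log2 change of 0.998 and was not called (SE 0.54, edgeR, adjusted p = 0.272). It was called higher with limma-voom (adjusted p = 0.0051), with 2 surrogate variables (edgeR, adjusted p = 0.0177) and with the replicate block (edgeR, adjusted p = 0.0305).

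Contractile cell genes changed in part. Of 13 smooth muscle, pericyte and myofibroblast genes, 4 were called higher and 0 lower, with a median log2 change of 0.33, and 2 were called higher without day 4 replicate 3 or 5, and 1 without day 2 replicate 3 or 5. Acta2, the smooth muscle actin of myofibroblasts, was at 286, 163, 243, 303 and 393 CPM in day 4 wounds, against 181, 153, 81.5, 120.03 and 91.1 CPM in day 2 wounds. Only day 4 replicate 2 lay within the day 2 range. It was higher by log2 1.15 (SE 0.31, edgeR, adjusted p = 0.019) and was lost without day 4 replicate 5 or day 2 replicate 3 or 5 (adjusted p = 0.0571 to 0.0652, edgeR). Myl9, a regulatory light chain, was higher by 1.13 (SE 0.30, edgeR, adjusted p = 0.0148), lost without day 2 replicate 3 or 5 (adjusted p = 0.0502 and 0.0528). Smtn and Tagln, which bind actin filaments, were higher by 0.68 and 0.86 (edgeR, adjusted p = 0.0169 and 0.0481), and without day 4 replicate 3 neither was called (edgeR, adjusted p = 0.138 and 0.12), Tagln being called in 3 of 10 such fits.

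Collagens showed positive changes, and how many passed the threshold depended on the fit. Of 19 collagen genes, 17 had positive log2 changes (median 0.92) and edgeR called 2, against 14 with 2 surrogate variables and 13 with limma-voom and sample weights. The shares of all genes called higher were 5.76%, 9.6% and 14%, in that order. The 2 were Col16a1 and Col11a1, neither of them without day 4 replicate 3 (edgeR, adjusted p = 0.188 and 0.161) or day 2 replicate 3, 4 or 5 (adjusted p = 0.0771 to 0.099). Col16a1 was also lost without day 4 replicate 5 (edgeR, adjusted p = 0.0588) and Col11a1 without day 2 replicate 1 (adjusted p = 0.0501). Col1a1, the main fibrillar collagen, was at 5305, 2613, 2657, 3853 and 8962 CPM in day 4 wounds, against 2336, 3965, 1146, 1116 and 1086 CPM in day 2 wounds. Day 2 replicate 2 lay within the range of day 4, and its change of log2 1.28 was not called (SE 0.58, edgeR, adjusted p = 0.181), but was with 2 surrogate variables (edgeR, adjusted p = 0.0046) and with limma-voom (adjusted p = 0.0014). No gene was called by edgeR in the lists of fibroblasts (13 tested), provisional matrix (14), collagen processing (16), metalloproteinases (13), plasminogen activators and their inhibitors (13) or endothelium (16). Of these 85 genes, 9 had p under 0.05 before adjustment, against 22.5% of all genes tested, and DESeq2 called 2. Limma-voom made 19 higher and 10 lower calls in these lists, against 14% and 16% of all genes tested. Among them were 5 fibroblast and 5 collagen processing genes higher and 5 provisional matrix genes lower. The fit with 2 surrogate variables gave 12 higher and 2 lower, against 9.6% and 6.42% of all genes tested. Mfap4, a microfibril protein, was the one gene that edgeR called of 15 proteoglycan and elastic fibre genes, of which 4 were higher with DESeq2, 10 with limma-voom and 11 with 2 surrogate variables. The shares of all genes called higher were 7.92%, 14% and 9.6%, in that order. Mfap4 was at 45.4, 34.9, 21.2, 25.1 and 78.2 CPM at day 4, against 7.13, 16.8, 2.77, 4.73 and 5.18 CPM at day 2 (log2 2.48, SE 0.53, edgeR, adjusted p = 0.00385), without overlap and with the call kept in all 10 fits that left out a library.

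Lrrc15 and C1qtnf3, fibroblast genes outside the naming rule and chosen after their values were seen, stood out among stromal genes. Lrrc15, a membrane protein that marks matrix-producing fibroblasts, was at 97.5, 27.3, 208, 87.6 and 190.3 CPM in day 4 wounds, against 7.16, 18.2, 7.62, 5.41 and 5.46 CPM in day 2 wounds (log2 3.80, SE 0.57, edgeR, adjusted p = 0.000128). C1qtnf3, a secreted protein of the C1q and Tnf family, was at 31.5, 14.6, 9.05, 15.5 and 41.3 CPM at day 4, against 2.53, 2.68, 0.693, 1.78 and 2.17 CPM at day 2 (log2 3.48, SE 0.55, edgeR, adjusted p = 0.000238). Neither overlapped between the days. In P wounds of day 12 they were at 226 to 914 and 55.8 to 378 CPM, above all day 4 wounds.

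Growth factor signalling changed in single members. Met, the receptor of hepatocyte growth factor, was at 20.2, 24.6, 29.2, 24.7 and 24.4 CPM in day 4 wounds, against 43.3, 44.0, 53.7, 33.1 and 41.7 CPM in day 2 wounds. The groups were narrow and separate, and Met fell by 0.81 (log2, SE 0.13, edgeR, adjusted p = 0.000345). Fgf2 was at 8.88, 10.6, 10.7, 8.42 and 10.5 CPM at day 4, against 21.7, 25.6, 22.6, 12.9 and 18.7 CPM at day 2, and fell by 1.05 (SE 0.25, edgeR, adjusted p = 0.00815). Fgf1 fell by 0.89 (SE 0.27, edgeR, adjusted p = 0.0375) and was called in 4 of 10 fits that left out a library, while Met and Fgf2 were called in all. With Fgf22 higher, the list of 14 fibroblast and other growth factor genes held 1 called higher and 3 lower.

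Of 12 EGF family genes, 2 were called higher and 0 lower, against 5.76% and 2.7% of all genes tested. Erbb2 and Erbb3, receptors that signal as a pair, were at 114, 129.99, 134, 74.5 and 103 CPM and at 111, 133, 144, 65.2 and 100.5 CPM in day 4 wounds. In day 2 wounds they were at 60.3 to 84.1 and 62.6 to 73.5 CPM. They were higher by log2 0.72 and 0.71 (SE 0.19 and 0.18, edgeR, adjusted p = 0.0129 and 0.0103), and day 4 replicate 4 lay within the day 2 range for both. Of 19 TGF-beta and activin genes, the receptor Tgfbr1 was lower (log2 -0.63, edgeR, adjusted p = 0.0409) and the decoy receptor Bambi higher (log2 1.49, adjusted p = 0.0461). Bambi was at 37.8 CPM in day 4 replicate 3 and 4.10 to 7.91 CPM in the other day 4 wounds, and was not called without that library (log2 0.51, edgeR, adjusted p = 0.521). Bambi was called in 4 and Tgfbr1 in 2 of the 10 fits that left out a library.

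Cdkn1a (ENSMUSG00000023067, chromosome 17, 29309936 to 29319701, plus strand), which encodes the CDK inhibitor p21, was at 513, 455, 406, 717 and 382 CPM in day 4 wounds, against 380.2, 354, 463, 300.1 and 361 CPM in day 2 wounds. The groups overlapped, and its change of log2 0.41 was not called (SE 0.20, edgeR, adjusted p = 0.207), nor in any fit that left out a library. Limma-voom with sample weights did call Cdkn1a higher (log2 0.39, adjusted p = 0.0461). In PD wounds Cdkn1a was at 389.9 to 823 CPM at day 4 and 225 to 416 CPM at day 2, and was called higher by log2 1.05 (SE 0.19, edgeR, adjusted p = 0.0026). The change in PD minus that in P was 0.64 (edgeR fit across all genes, unadjusted p = 0.0253, adjusted p = 0.683), so the arms were not shown to differ. The labels do not say that Cdkn1a itself was altered in either arm, so its level does not check them.

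Cdkn1c and Cdkn2b, genes of other CDK inhibitors, were higher in P wounds, making 2 of 11 CDK inhibitor and senescence marker genes called higher and 0 lower (median log2 change 0.26). Cdkn1c, which encodes p57 and helps cells leave the cycle as they differentiate, was at 81.6, 46.8, 12.1, 51.4 and 39.8 CPM in day 4 wounds, against 7.39, 9.33, 13.4, 14.6 and 14.48 CPM in day 2 wounds. Day 4 replicate 3 lay inside the day 2 range, as it did for Mymk, Myl4 and Myh8, and the rise was 3.92-fold (log2 1.97, SE 0.35, edgeR, adjusted p = 0.00071). In PD wounds it was higher by log2 2.40 (edgeR, adjusted p = 0.00021). Cdkn2b, which encodes p15, was at 9.23, 9.56, 14.2, 5.65 and 10.4 CPM at day 4, against 4.37, 4.35, 4.16, 4.64 and 3.81 CPM at day 2 (log2 1.202, SE 0.21, edgeR, adjusted p = 0.00071), without overlap. Both calls held without any single library. Cdkn2a, the gene of p16 and Arf, was at 0.226 to 0.561 CPM at day 4 and 0.0694 to 0.357 CPM at day 2 and was not called (log2 1.22, SE 0.56, edgeR, adjusted p = 0.184), with 30 counts over the day 2 wounds.

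No gene passed edgeR's threshold among 27 senescence-associated secretory genes (median log2 change -0.50). Before adjustment 3 had p under 0.05, against 22.5% of all genes tested, and DESeq2 called 1, against 11.6%. Limma-voom called 2 higher and 8 lower, against 14% and 16%. None passed among the 13 DNA replication and 13 mitosis genes (medians 0.0045 and 0.051). Of these, 0 had p under 0.05 before adjustment, DESeq2 called 0 and limma-voom called 3 higher, against the same shares of all genes. Mki67, a marker of cycling cells, was at 143, 155, 194, 90.5 and 129 CPM in day 4 wounds, against 128, 184, 144, 115 and 135 CPM in day 2 wounds (log2 0.01, SE 0.25, edgeR, adjusted p = 0.991), and its sign turned under several alternatives. Of 20 p53 target genes, 2 were called higher and 0 lower (median 0.21), against 5.76% and 2.7% of all genes tested. With limma-voom 6 were higher and 7 lower, against 14% and 16%. Perp, a desmosome protein that p63 also drives in epidermis, was at 829.3 to 2561 CPM at day 4 and 399.6 to 1189.7 CPM at day 2 (log2 1.27, SE 0.34, edgeR, adjusted p = 0.0185), lost without day 4 replicate 2 or day 2 replicate 4 or 5 (adjusted p = 0.0594 to 0.068, edgeR). Pmaip1, a BH3-only death protein, was higher by log2 0.59 (edgeR, adjusted p = 0.0297) and called in 4 of 10 such fits.

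Of 13 Nrf2 and metallothionein genes, 1 was called higher and 3 lower, against 5.76% and 2.7% of all genes tested. Limma-voom called 9 lower, against 16%. Mt1 and Mt2, which bind zinc and are induced by glucocorticoids and inflammation, fell by 1.75 and 1.79 (log2, SE 0.39 and 0.40, edgeR, adjusted p = 0.00523 and 0.00509). Mt2 was at 361, 375, 238, 315 and 233 CPM in day 4 wounds, against 695, 855, 1316, 942 and 1446 CPM in day 2 wounds, without overlap. Mt4, the metallothionein of stratified epithelium, was at 17.2, 7.41, 31.6, 5.83 and 6.01 CPM at day 4, against 0.822, 1.11, 1.62, 0.952 and 2.11 CPM at day 2, and was higher by log2 3.38 (SE 0.68, edgeR, adjusted p = 0.00233). Mt1 and Mt2 are similar in sequence and may share reads. Sod2, the mitochondrial superoxide dismutase, fell by 0.68 (SE 0.18, edgeR, adjusted p = 0.0166), lost without day 4 replicate 3 or day 2 replicate 4 (adjusted p = 0.0556 and 0.0602). The 9 remaining genes of that list were not called by edgeR.

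Of 15 immediate early genes, Egr2 and Egr3, zinc finger factors induced by growth signals, were called higher (log2 0.94 and 0.91, edgeR, adjusted p = 0.0119 and 0.0457). Egr2 stood at 128 CPM in day 4 replicate 3 and was not called without it (edgeR, adjusted p = 0.0871), and Egr3 was called in 2 of 10 fits that left out a library. Of 14 adipocyte genes, Cebpa was higher (log2 0.86, SE 0.24, edgeR, adjusted p = 0.0221) and the lipase gene Pnpla2 lower (log2 -0.88, SE 0.27, adjusted p = 0.0392). Cebpa is also expressed in differentiating keratinocytes. It was lost without day 4 replicate 1 or 2 or day 2 replicate 3 or 5 (adjusted p = 0.0577 to 0.0817, edgeR), and Pnpla2 without day 4 replicate 1, 2 or 3 or day 2 replicate 4 or 5 (adjusted p = 0.0775 to 0.125, edgeR). In PD wounds 13 of the 14 adipocyte genes were called lower at day 4, against 1.59% of all genes tested. No gene was called by edgeR in P wounds among those of glycolysis and hypoxia (17), the respiratory chain and Krebs cycle (23), the IGF system (12), sebaceous glands (12), Schwann cells (9) or the circadian clock (13). Of these 86 genes, 11 had p under 0.05 before adjustment, against 22.5% of all genes tested, and DESeq2 called 2. Limma-voom made 9 higher and 18 lower calls in these lists, against 14% and 16% of all genes tested. The lower ones included 9 of 23 respiratory chain and Krebs cycle genes and 5 of 17 glycolysis and hypoxia genes. The fit with 2 surrogate variables gave 3 higher and 5 lower, against 9.6% and 6.42% of all genes tested.

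**Figure D4:**
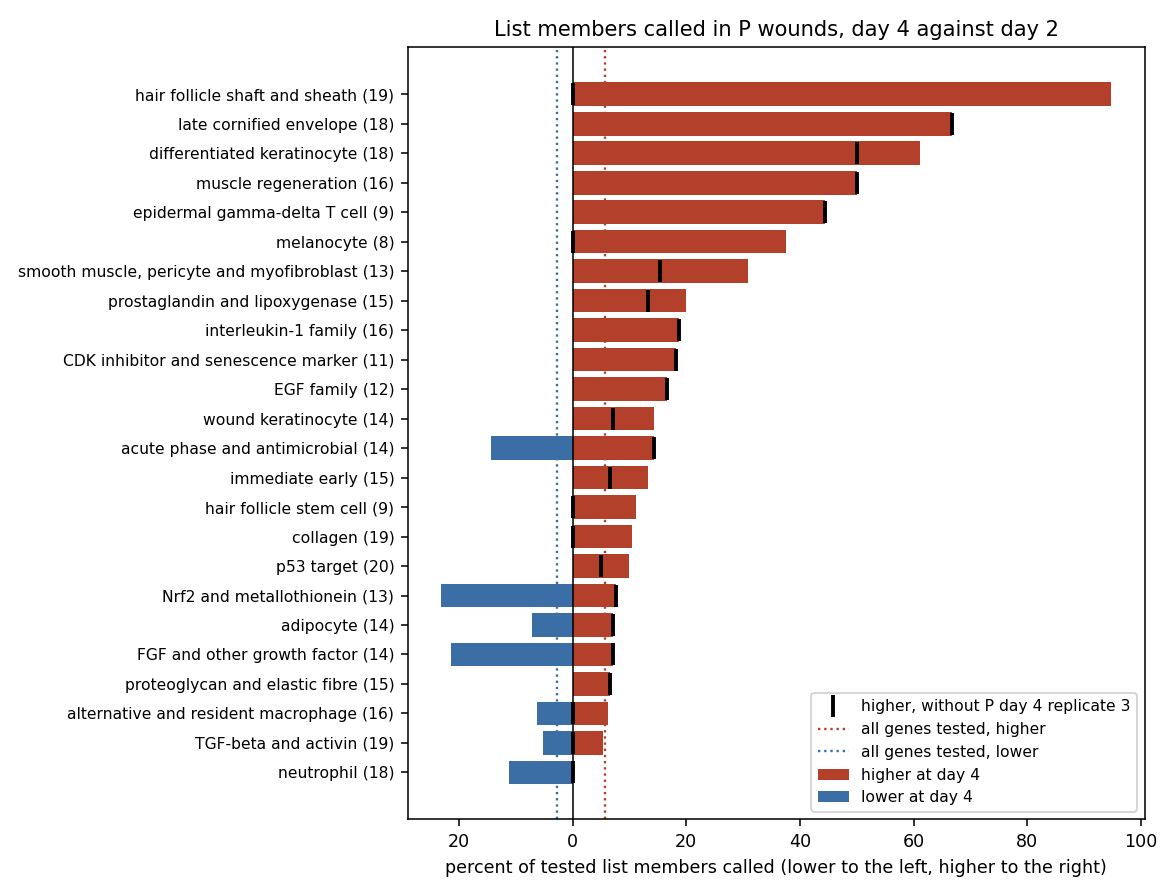
Percent of tested members called in each gene list with at least 1 call, higher to the right and lower to the left of 0, with the number tested in parentheses. Black ticks give the share higher without day 4 replicate 3 and dotted lines the shares of all genes tested (5.76% and 2.7%); the hair and melanocyte bars end at 0 without that library, while the late cornified envelope and muscle regeneration bars keep 12 and 8 genes.

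The same days of the PD arm gave 880 called genes (4.26%), 551 higher (2.67%) and 329 lower (1.59%), from libraries not used in the P comparison though fitted with the same estimate of spread. Both arms called 291 genes higher, which is 24.5% of the P calls and 52.8% of the PD calls, and 56 genes lower, which is 10.1% and 17.02%. Opposite calls were made for 0 genes. Of the genes called higher in P wounds, 95.0% had a positive log2 change in PD wounds, against 51.8% of all genes tested, and of those called lower in P wounds 92.3% had a negative one, against 47.7%. Myh3 rose in PD wounds by log2 6.23 (SE 0.73, edgeR, adjusted p = 2.21e-05), at 201 to 536 CPM at day 4 and 1.69 to 14.4 CPM at day 2. Flg rose by 4.19 (edgeR, adjusted p = 0.017) and Lrrc15 by 4.25 (adjusted p = 9.4e-05).

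Of the muscle genes lower in P wounds, Rrad fell in PD wounds too (log2 -1.54, edgeR, adjusted p = 0.033). Ankrd2, Mustn1 and Trim63 had log2 changes of -1.23, -0.37 and -0.27 and were not called (edgeR, adjusted p = 0.21, 0.71 and 0.83), with PD day 4 wounds spread from 39.0 to 509.9, 113 to 968 and 43.8 to 680.3 CPM. Whether the change between the days differed between the arms was tested in the same fit. By edgeR 0 of 20657 genes were called (0%), the smallest adjusted p being 0.633, and 1472 genes (7.13%) had p under 0.05 before adjustment. DESeq2 called 78 genes and limma-voom with sample weights 2797. The smallest such p among named genes was that of Serpina3m (edgeR fit across all genes, unadjusted p = 0.000303, adjusted p = 0.633), which was at 6.33 ± 4.89 CPM at day 4 and 8.19 ± 1.11 CPM at day 2 in PD wounds (SD, n = 6 and 5).

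**Figure D5:**
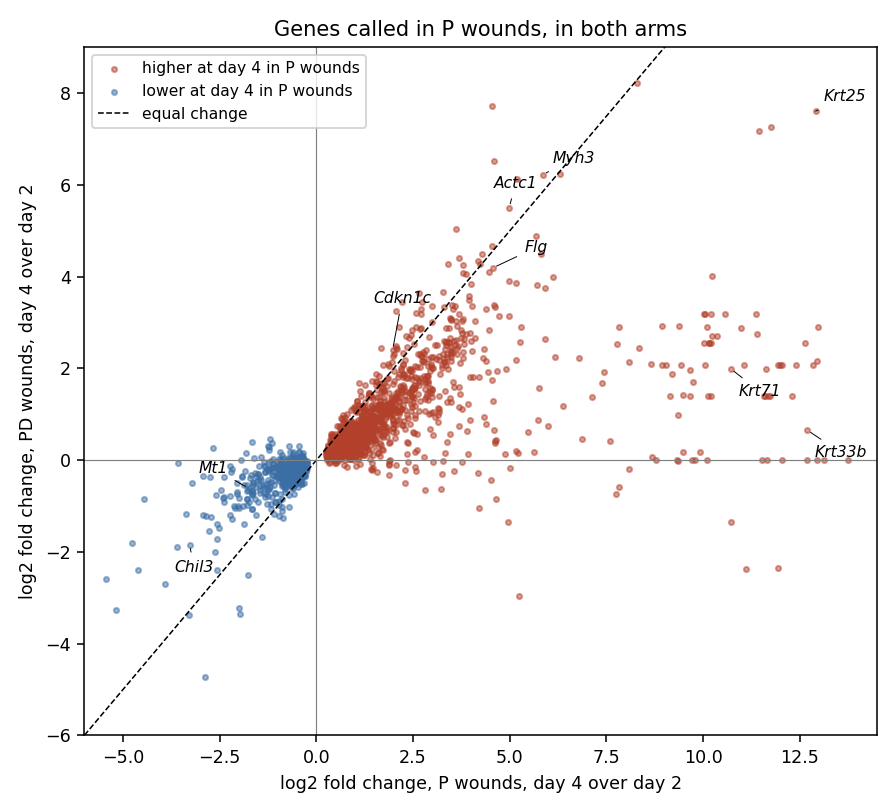
Log2 fold change of day 4 over day 2 in PD wounds (vertical) against that in P wounds (horizontal) for the 1746 genes called in P wounds, with the dashed line at equal change. Most genes lie in the quadrants of equal sign; the hair keratins such as Krt33b, carried in P wounds by day 4 replicate 3, lie far to the right. Krt33b had 0 counts in P wounds of day 2, so its place on the horizontal axis is a fitted value and no measured fold.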

How the data were processed

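Gene counts of 36 skin libraries were used as deposited. Per the submitters' processing notes, the authors trimmed reads with Trimmomatic, aligned them to GRCm39 with HISAT2 2.1.0, handled alignments with SAMtools 1.9 and counted reads per gene with HTSeq, so the deposited values are raw counts. The strand setting of the counting and the annotation release are not given in the sources used here. Without the strand setting, genes that overlap others or have an antisense partner are uncertain. The files hold 55414 genes, of which 1416 have no symbol and 54749 were found in the annotation used for coordinates (GENCODE vM39).

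Counts of all 36 libraries were filtered with filterByExpr (minimum count 10, minimum total 15), scaled by TMM and fitted by group with edgeR 4.0.16 (R 4.3.3) by the quasi-likelihood test with 29 residual degrees of freedom. P-values were adjusted by Benjamini-Hochberg over 20657 genes at a threshold of 0.05, two-sided. SE is the absolute log2 fold change divided by the square root of F. Principal components used log2 CPM with a prior count of 2. Alternatives used limma 3.58.1, DESeq2 1.42.0 and sva 3.50.0. Intervals of counting error were not needed beyond the floor of 3 counts used for genes at 0, which covers counting error only.

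The members and the 53 gene lists (750 genes, 738 tested, 5 absent from the files) were chosen with earlier results of these data known. Named genes were Cdkn1a, the 12 highest and 12 lowest called genes by fold with a mean of at least 5 CPM, no overlap between the days and no predicted gene, and up to 8 called and 4 uncalled members per list. The text gives a subset of these, plus Lrrc15 and C1qtnf3. On simulated data for P day 4 against P day 2 with 20657 genes, 70 of 100 genes changed 2-fold and 97 of 100 changed 8-fold were recovered, and 9 unchanged genes were called. The simulated counts were independent, took their spread from the fit itself and held no library-wide shifts. Only genes of at least 5 CPM were changed. The run checks the code and gives no error rate for the real libraries, some of which stood apart. No libraries of a group agreed within counting noise (smallest chi-square per degree of freedom 34.6). Promoters came from a RefSeq table of GRCm38.p6.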

Additional observations from a re-analysis of the deposited data

Results flagged for a closer look

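In groups of 5, a library was marked when its gap to the nearest other library took an unusually large share of the group's range (Dixon's criterion). Of 240 groups of values tested, 42 were marked. The nominal rate of the criterion, 1 in 20 or 12, is no measure of chance here. The genes tested are the named ones, partly chosen by their change in these data, and their groups are not independent. Day 4 replicate 3 was the library in 20 of them and day 4 replicate 4 in 10. Levels are in CPM.

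In day 4 replicate 3 the marked genes of hair and keratinised epithelium were Padi1 at 60.4, Padi3 at 234, Krt17 at 5824, Krt28 at 399, Krt33b at 134, Krtap17-1 at 53.7, Crnn at 179, Prr9 at 449, Tchhl1 at 96.9, Capn12 at 60.7, Krt71 at 2608, Krt25 at 1624 and Tchh at 2796. Pigment genes marked there were Pmel at 22.7, Dct at 34.8 and Tyr at 6.84. The others were Apoe at 5613, Smtn at 293, Bambi at 37.8 and Egr2 at 128.

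In day 4 replicate 4 the marked muscle genes were Rrad at 55.7, Cryab at 855, Mustn1 at 317, Nmrk2 at 22.7 and Ttn at 2517. The marked inflammatory and stress genes were S100a9 at 4941, Tnf at 277, Il1b at 3248, Defb14 at 41.6 and Sod2 at 171. Il6 stood apart at 8.19 in day 4 replicate 5.

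Among day 2 wounds, replicate 1 stood apart for Krt17 (1758), Tchhl1 (0.303), Krt25 (0.130), S100a7a (2.05) and Erbb2 (84.1). Replicate 2 did for Crnn (0.162), Chil3 (126) and Lrrc15 (18.2), replicate 3 for Lhx2 (22.7), and replicate 5 for Ncam1 (39.7) and Pax7 (2.67).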

How the results depend on the processing

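Counts that moved by over 1.5 times are given as higher and lower genes. P wounds gave 2888 and 3297 with limma-voom and sample weights, 774 and 364 with only the 10 libraries of the comparison, and 1983 and 1326 with 2 surrogate variables. Replicates 1 and 2 alone gave 48 and 2, and replicates 3 to 5 alone 569 and 99. These subsets, and leaving out day 4 replicates 3 and 4 together, were chosen after seeing the data. Without the filter on low counts 292 genes were lower. PD wounds gave 343 and 614 without a composition factor, 1139 and 508 with DESeq2, 2175 and 1920 with limma-voom, 320 and 207 without the filter, and 972 higher with 2 surrogate variables. The difference between arms had 78 calls with DESeq2 and 2797 with limma-voom. Leaving out 1 P library gave 693 to 1591 higher and 244 to 853 lower in P wounds, 517 to 589 and 313 to 430 in PD wounds, and 0 to 0 for the difference. The cause was not tested.

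Changes of sign came only in uncalled genes (log2). Mki67 was at -0.00418 with 2 surrogate variables, at -0.0436 with replicates 1 and 2 alone, and at -0.129 to 0.158 without 1 library. Il1b was at -0.0445 without day 4 replicates 3 and 4, and at -0.103 to 0.525 without 1 library. With replicates 1 and 2 alone Myog was at 0.256 and Myod1 at 0.387, and with replicates 3 to 5 alone Mymx was at -0.21. Of the named calls, 30 of 71 higher and 13 of 23 lower ones held without any single library.

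With the replicate number as a block, 814 genes were higher and 311 lower. In that fit 3 muscle regeneration, 17 differentiated keratinocyte and 0 hair genes were called higher. Mymk, Myl4, Myh8 and Cdkn1c were not called (edgeR, adjusted p = 0.0645 to 0.105). The labels do not say that equal numbers share an animal or day. Same-numbered libraries correlated at 0.131, 0.225, 0.00496, 0.243 and 0.0562 in their deviations. Only replicate 2 correlated best with its own number.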
